A study of Mus musculus with 6 samples.

Results

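Transcripts of integrins, laminins and other basement membrane and matrix genes were examined in bulk RNA-seq of the proximal incisor of *Arid1b* mutant and control mice. Members were chosen by gene name. They were integrin alpha and beta subunits, laminin chains, and 15 further genes: *Nid1*, *Nid2*, *Hspg2*, *Agrn*, *Npnt*, *Fras1*, *Frem1*, *Frem2*, *Dag1*, *Fn1*, *Vtn*, *Egfl6*, *Sparc*, *Fbln1* and *Fbln2*. Of the 51 names described here, 49 were among the 19270 genes of the expression table, and *Itgad* and *Vtn* were not analysed here.

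The study asked what the loss of ARID1B, a subunit of the BAF chromatin remodelling complex, does to the stem cells and tissue of the mouse incisor. Libraries came from 3 control and 3 mutant mice. Mutants had the genotype *Gli1-CreER;Arid1b fl/fl*, so that tamoxifen switched on a Cre recombinase driven by the *Gli1* promoter. *Gli1* is active in mesenchymal and in epithelial cells of the incisor, so the deletion is not limited to the mesenchyme. The labels give the controls as wild type, and the methods of the study describe its control mice as *Arid1b fl/fl*. Both groups received intraperitoneal tamoxifen at 1 month of age, and the proximal mesenchymal tissue was dissected 4 days after induction. No Cre driver is named for the controls, so its presence and the loss of *Arid1b* cannot be told apart. Each library held an estimated 37123643 to 49594469 reads.

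Each gene had the authors' mean of a normalized signal in each group. Values of single mice were not analysed here, so the spread between mice is unknown, no difference could be tested and every ratio describes the means of 3 libraries against 3. Over the whole gene, *Arid1b* itself had a mean of 97.6 in controls and 38.0 in mutants, a ratio of 0.390. The sex-linked transcripts differed between the groups as well. The Y-linked *Ddx3y*, *Eif2s3y*, *Kdm5d* and *Uty* lay at or under the value of 3 reads per library in controls, and *Ddx3y* had a mean of 65.3 in mutants. *Xist*, expressed from the inactive X chromosome, had means of 3368 in controls and 814 in mutants. Sex and genotype cannot be told apart for any gene below.

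Integrins are receptors made of an alpha and a beta subunit that bind cells to the extracellular matrix and connect it with the cytoskeleton. Laminins are trimers of an alpha, a beta and a gamma chain that form the first network of a basement membrane, which nidogens and perlecan tie to a network of type IV collagen. In the growing tooth a basement membrane separates the dental epithelium from the mesenchyme. Laminins that hold the *Lama3* and *Lamb3* products, together with their receptor integrin α6β4, anchor basal epithelial cells.

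Of the 49 members, 47 had an average of the group means of at least 1, as did 14744 genes in all. Among these 47, the mutant mean was over 1.5 times the control mean for 5 members, *Lama3*, *Itgb6*, *Lamb3*, *Itgb4* and *Npnt*. That is 10.6% of the members, beside 4.14% of all genes kept. The opposite difference, a control mean over 1.5 times the mutant mean, was found for *Itga10* alone, 2.13% of the members beside 1.91% of all genes. The other 41 members lay within this fold. The median log2 ratio of mutant to control was 0.04 over the members and 0.01 over all genes kept, both close to 0. A higher mutant mean was found for 27 members, 57.4%, beside 51.4% of all genes kept. When the groups were scaled to the same total, these shares were 66.0% (31 members) and 67.2%.

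The share of genes past the fold depended on their level. Among genes with an average of 10 to 100, 2.33% of 8254 had a mutant mean over 1.5 times the control mean, and 4 of 18 members did. The opposite difference was found there for 1.02% of genes and 1 of 18 members, *Itga10*. Of 2000 genes with an average of 100 to 1000, 1.35% were higher in mutants past the fold, as was 1 of 20 members. The opposite difference was found at this level for 0.4% of genes and 0 of 20 members. The 7 members with an average of 1 to 10 all lay within the fold. Of all genes at that level, 8.75% were higher in the mutants past the fold and 4.24% were lower past it.

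**Figure D1:**
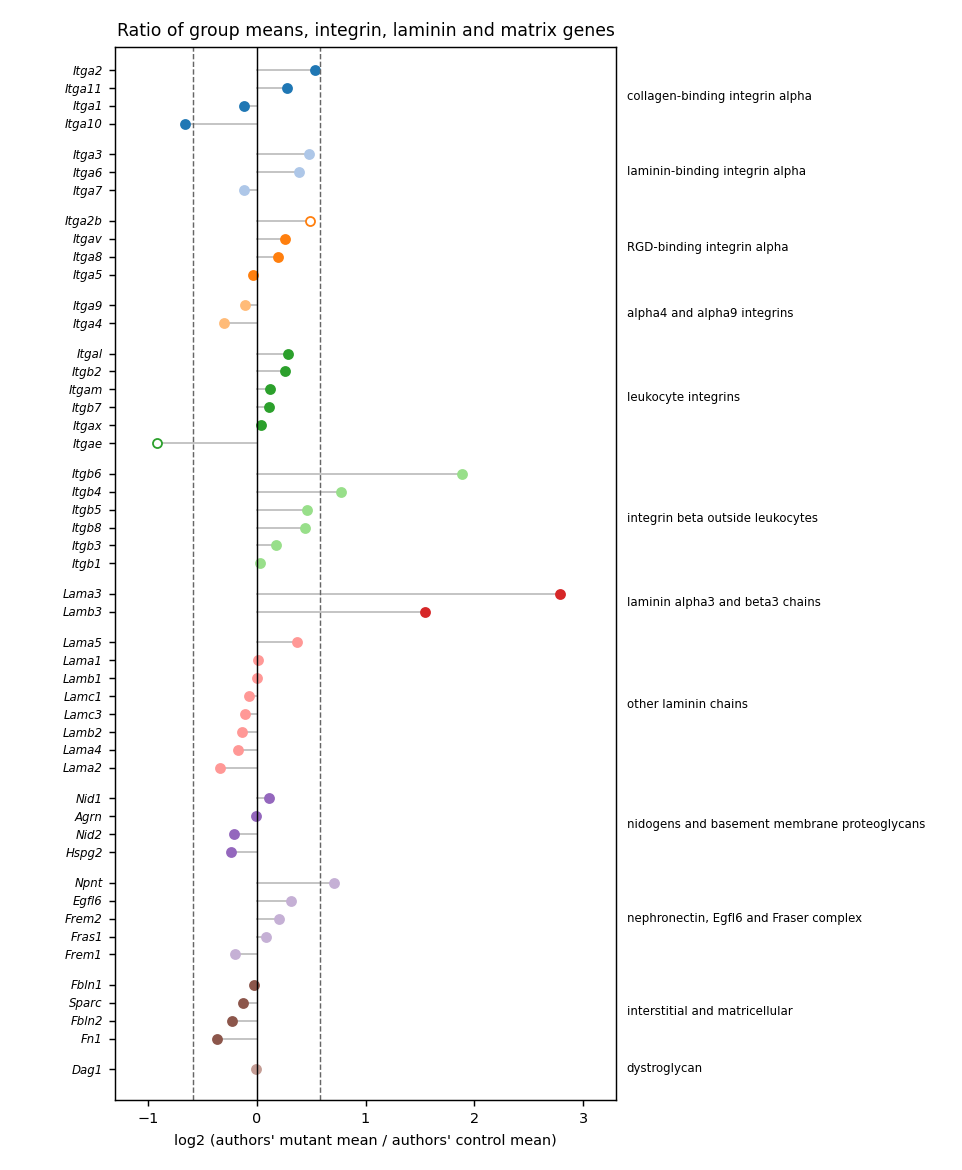
Each point is the log2 of the authors' mutant mean over the authors' control mean of 1 gene, grouped by role, with dashed lines at a fold of 1.5 in either direction and open points for the 2 genes with an average under 1. *Lama3*, *Itgb6* and *Lamb3* lie farthest to the right, at 2.79, 1.89 and 1.55, and *Itga10* is the only filled point left of the lower line.

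Markers of the cell types in the tissue differed between the groups as well and are given first. All 11 markers of dental epithelium had a mutant mean over 1.5 times the control mean, with ratios of 1.68 to 14.6 and a median log2 ratio of 1.15. Their summed mean was 1648 in controls and 10402 in mutants, and most of it in both groups came from *Ambn*, *Amelx* and *Enam*. These 3 had ratios of 5.44, 10.9 and 14.6, and those of the other markers ran from 1.68 to 2.35. The sum thus mostly reflects these 3 genes. The highest mean signal among the 11 markers was that of *Ambn* in controls, with 617, and of *Amelx* in mutants, with 3946. Per kb of exon, *Amelx* was above *Ambn* in both groups, at 362.2 and 3950 beside 321.7 and 1751. Both encode enamel matrix proteins of ameloblasts. The basal keratins had smaller ratios: *Krt14* had means of 90.4 and 182.3, and *Krt5* had means of 154.2 and 358.5. Of 10 pan-epithelial markers kept, 8 were past the fold, or 6 of 8 without *Cdh1* and *Epcam*, which are on both lists. The median log2 ratio of the 10 was 0.82, and the summed mean of the list was 204.9 in controls and 350.0 in mutants. None of the epithelial markers *Cdh1*, *Epcam*, *Krt5* and *Krt14* was near 0 in the controls, so epithelial RNA was present in both groups of this tissue, which the study names mesenchymal. In bulk tissue, fewer cells of a type and less RNA per cell cannot be told apart.

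Markers of dental mesenchyme had a median log2 ratio of -0.24, with 1 of 10 past the fold in each direction. The lower one was *Gli1*, whose promoter drives the Cre, with means of 106.4 and 46.1, a ratio of 0.434, and the higher one *Igfbp6*, with a ratio of 1.59. Their summed mean was 34735 in controls and 28866 in mutants, and *Col1a1* was the most abundant in both. Endothelial markers had a median of 0.03, with 0 of 8 past the fold, and summed means of 383.3 and 385.2; *Cdh5* was the most abundant. The part of the mix of cells in the ratios of the members was not tested.

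*Lama3* and *Lamb3*, which encode laminin chains of epithelia, held places 1 and 3 among the 49 members by ratio. *Lama3*, which encodes the α3 chain, had a mean of 24.2 in controls and 167.0 in mutants, a ratio of 6.90. It stood at place 18 of 14744 genes by this ratio. *Lamb3*, which encodes the β3 chain, had means of 40.8 and 119.3, a ratio of 2.93 and place 76. The α3 and β3 chains thus had unequal ratios, and their summed mean was 65.0 in controls and 286.4 in mutants. Among the 11 dental epithelium markers, 2 had a larger ratio than *Lama3* and 3 had a larger one than *Lamb3*. The highest ratio among the 10 pan-epithelial markers was 2.52. Whether these chains followed the amount of epithelium was not tested.

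A further 8 laminin chains all lay within the fold, with a median log2 ratio of -0.09 and a range of -0.34 to 0.37. *Lama5*, the α5 chain of many epithelial and vascular basement membranes, had means of 40.3 and 52.0, a ratio of 1.29. *Lama2*, the α2 chain best known from muscle and nerve, had means of 99.3 and 78.6, a ratio of 0.792. *Lama4*, the α4 chain of vessel walls, had means of 124.9 and 110.6. *Lamb1* and *Lamc1*, which encode the β1 and γ1 chains of most laminins, had ratios of 1.00 and 0.950. The sign of the *Lamb1* difference turned when ratios were centred on the median of all genes, since its means of 219.48 and 219.49 were nearly equal. *Lama1*, *Lamb2* and *Lamc3* had log2 ratios of 0.01, -0.14 and -0.10.

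Levels of different genes were compared as authors' mean signal per kb of exon. On this scale the level of *Lama3* was 2.25 in controls and 15.5 in mutants, and that of *Lamb3* was 6.17 and 18.0. The share of *Lamb3* in the summed β chain level was thus 13.2% in controls and 31.6% in mutants, and that of *Lama3* among the α chains was 7.59% and 37.3%. With the longest transcript as the length, the shares were 12.6% and 30.4% for *Lamb3*, and 5.17% and 29.0% for *Lama3*. *Lama4* was the most abundant α chain per kb in controls, with a level of 10.3, and *Lama3* in mutants, with 15.5. By longest transcript it was *Lama4* in both groups, with 20.7 and 18.3.

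**Figure D2:**
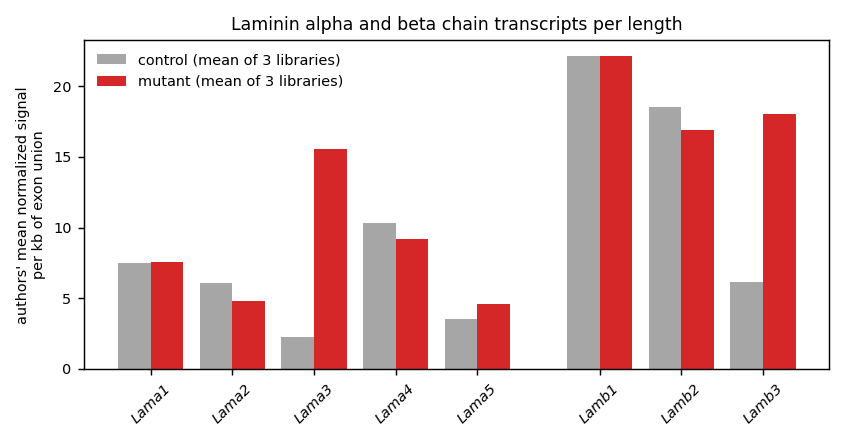
Bars give the authors' mean normalized signal per kb of exon union for laminin α and β chains, grey for controls and red for mutants, each a mean of 3 libraries with no error available. *Lama3* and *Lamb3* have red bars at 15.5 and 18.0, far above their grey ones, while the paired bars of the other chains are of similar height.

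In GRCm38, *Lamb3* lies on the plus strand of chromosome 1, at 193207699 to 193343878, and *Lama3* on the plus strand of chromosome 18, at 12333819 to 12583013. *Lamb3* overlaps the protein-coding genes *G0s2* and *Hsd11b1* on the opposite strand, and whether the counting used strand is not given in the sources used here. *G0s2* had means of 9.61 and 9.75, under the values of *Lamb3* in both groups, and *Hsd11b1* has no value in the table. Protein-coding genes also overlap *Nid2* and *Itgae* on the opposite strand: *Rtraf*, with means of 78.3 and 91.8, lies over *Nid2*, and *Haspin*, with means of 3.92 and 4.53, lies over *Itgae* and exceeded it in both groups. *Itga4* is overlapped in the same way by *Cerkl*, with means of 2.44 and 2.14, and *Itga7* by *Mettl7b*, which has no value in the table. On the same strand, *Pelo*, with means of 12.47 and 12.04, and *Gm49395*, with means of 0.498 and 0.853, overlap *Itga1*, *Gm49368*, with no value in the table, overlaps *Itgam*, and *Gm42957*, with means of 0.854 and 0.591, overlaps *Itga10*.

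Nidogens and the basement membrane proteoglycans had a median log2 ratio of -0.11, and 0 of 4 passed the fold. *Nid1*, which links laminin to type IV collagen, had means of 387.7 and 419.5, and its relative *Nid2* had means of 190.0 and 164.5. *Hspg2*, which encodes perlecan, had means of 512.8 and 435.7, a ratio of 0.850. *Agrn*, which encodes agrin, had means of 331.0 and 328.6, a difference whose sign turned when the groups were scaled to the same total. The ratios of these genes thus lay between 0.850 and 1.08, under those of *Lama3* and *Lamb3*.

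*Npnt*, which encodes nephronectin, a ligand of integrin α8β1, had a mean of 128.6 in controls and 210.5 in mutants, a ratio of 1.64. This was the smallest ratio among the 5 members higher past the fold. It is on the minus strand of chromosome 3, at 132881745 to 132950291. *Egfl6*, a relative of nephronectin, had means of 5.48 and 6.80, a ratio of 1.24. The Fraser complex of *Fras1*, *Frem1* and *Frem2* joins epithelium to mesenchyme beneath the lamina densa, and none of its genes passed the fold. *Fras1* had means of 247.3 and 262.4, *Frem2* had means of 171.4 and 198.0, and *Frem1* had means of 381.8 and 331.9. Of the 11 dental epithelium markers, all had a larger ratio than *Npnt*, whose receptor subunit *Itga8* had means of 47.7 and 54.5.

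The interstitial and matricellular genes *Fn1*, *Sparc*, *Fbln1* and *Fbln2* had a median log2 ratio of -0.18, and 0 of 4 passed the fold. A lower mutant mean was found for 4 of 4, beside 7171 of 14744 genes kept. When the groups were scaled to the same total, *Fbln1* was no longer lower, and 4831 of the 14744 genes were lower. *Fn1*, which encodes fibronectin, had means of 1469 and 1140, a ratio of 0.776. *Sparc*, a collagen-binding glycoprotein abundant in mineralizing tissue, had means of 3618 and 3303. *Fbln2*, an elastic fibre and basement membrane protein, had means of 304.8 and 261.0, and *Fbln1* had means of 287.0 and 282.8. The mesenchymal markers beside them had a median log2 ratio of -0.24, and *Col1a1* had a ratio of 0.807.

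Per kb, *Sparc* had the highest level of all members in controls, at 955. It was followed by *Itgb1* at 196.8, *Fn1* at 125.7, *Fbln1* at 65.7 and *Nid1* at 55.8. Then came *Fbln2* at 47.8, *Lamc1* at 40.1, *Nid2* at 36.7, *Hspg2* at 35.8 and *Agrn* at 35.7. In mutants *Sparc*, *Itgb1*, *Fn1*, *Fbln1* and *Nid1* held the same places, and *Npnt* was next at 41.9. *Lamb3* stood at place 29 of 49 in controls and at place 18 in mutants, and *Lama3* at places 37 and 21. Whether neighbours in this order differ beyond the spread between mice is unknown. With the longest transcript as the length, 8 of the 10 genes highest in controls were again among the top 10, and *Sparc* had a level of 1573. By that length in mutants, *Fbln2* at 54.5 and *Itga6* at 46.4 stood above *Npnt* at 45.6.

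The integrin β subunits all had a higher mutant mean, 8 of 8 under each scaling, beside 51.4% of all genes, or 67.2% when the groups were scaled to the same total. Their median log2 ratio was 0.35, and *Itgb1* lay near 0, at 0.03. The direction of *Itgb7*, with a ratio of 1.08 and a counting interval of 0.876 to 1.36, lay within counting error. Of the 8, 2 passed the fold. *Itgb6*, whose product pairs with αv on epithelial cells and activates latent TGF-β, had a mean of 5.72 in controls and 21.2 in mutants, a ratio of 3.70 and place 48. It rested on about 220 reads per library in controls and 917 in mutants. *Itgb4*, the hemidesmosome subunit that pairs with α6 alone, had means of 66.0 and 112.5, a ratio of 1.71 and place 369. It is on the plus strand of chromosome 11, at 115974709 to 116008412, and *Itgb6* on the minus strand of chromosome 2, at 60598292 to 60722643.

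The remaining β subunits lay within the fold. *Itgb5*, an αv partner, had means of 99.5 and 137.1, a ratio of 1.38. *Itgb8*, another αv partner that activates latent TGF-β, had means of 11.7 and 15.9, a ratio of 1.36. *Itgb1*, the partner of most α subunits, had means of 803.0 and 817.9, a ratio of 1.02. *Itgb3*, the vitronectin and platelet receptor subunit, had means of 4.20 and 4.75. Per kb, *Itgb1* made up 82.2% of the summed β subunit level in controls and 76.1% in mutants, while *Itgb6* made up 0.336% and 1.13% and *Itgb4* 3.93% and 6.09%. So *Itgb6* had a large ratio at a low level.

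Of the 15 integrin α subunits kept, none had a mutant mean over 1.5 times the control mean and 1 had the opposite, and the median log2 ratio was 0.12. *Itga6*, the laminin receptor subunit and partner of *Itgb4*, had means of 152.5 and 199.9, a ratio of 1.31. *Itga3*, another laminin receptor subunit of epithelia, had means of 23.7 and 33.0, a ratio of 1.39. *Itga7*, the laminin receptor subunit of muscle, had means of 3.14 and 2.89. All 11 dental epithelium markers and, without the genes of both lists, 6 of 8 pan-epithelial markers had a larger ratio than *Itga6*. Per kb, *Itga6* was 16.5% of the summed α subunit level in controls and 20.1% in mutants.

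*Itga6* and *Itgb4*, the partners in α6β4, thus lay on different sides of the fold. Both were present in controls, at levels per kb of 16.9 and 9.41, and had levels of 22.2 and 16.0 in mutants. By longest transcript the levels were 35.4 and 10.6 in controls, and 46.4 and 18.1 in mutants.

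Among the collagen receptors, *Itga10* was the 1 member lower in the mutants past the fold. Its product binds collagen and is best known from cartilage. *Itga10* had a mean of 38.8 in controls and 24.5 in mutants, a ratio of 0.632, and stood at place 219 of 14744 from the lowest ratio. It is on the plus strand of chromosome 3, at 96645584 to 96664519. *Itga2*, also a collagen receptor subunit and just within the fold on the higher side, had means of 31.1 and 45.1, a ratio of 1.45; it passed the fold when the groups were scaled to the same total. *Itga1* and *Itga11*, the other collagen receptor subunits, had ratios of 0.924 and 1.21. *Itga2* and *Itga1* are neighbours on chromosome 13, with 20995 bases between them, and lay on opposite sides of 1.

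The α subunits that bind fibronectin and other RGD ligands lay within the fold where kept. *Itgav*, the partner of *Itgb5*, *Itgb6* and *Itgb8*, had means of 183.2 and 219.9, a ratio of 1.20. *Itga5*, the fibronectin receptor subunit, had means of 42.3 and 41.1, and its sign turned under scaling to the same total. *Itga4* and *Itga9*, which bind fibronectin variants, VCAM-1 or tenascin, had ratios of 0.809 and 0.929. *Dag1*, which encodes dystroglycan, a laminin receptor that is not an integrin, had means of 219.2 and 217.8, and its sign also turned under that scaling.

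Leukocyte integrins had a higher mutant mean in 5 of 5 kept members, beside 51.4% of all genes kept. The share of all genes was 67.2% when the groups were scaled to the same total. *Itgax* and *Itgb7* had ratios of 1.03 and 1.08, with counting intervals of 0.827 to 1.29 and 0.876 to 1.36. Their direction thus lay within counting error. *Itgae*, under the minimum mean, went the other way, with a ratio of 0.528. *Itgb2* and *Itgb7* were also counted among the integrin β subunits above. The median log2 ratio of the 5 was 0.12, with a range of 0.04 to 0.29. *Itgam*, a subunit of complement receptor type 3 on myeloid cells, had means of 12.7 and 13.8. *Itgb2*, the shared β subunit of leukocytes, had means of 6.28 and 7.52, and *Itgal*, its partner on lymphocytes, had means of 7.09 and 8.66. The summed mean of the leukocyte integrins was 29.2 in controls and 33.0 in mutants, 1.13 times as high. Beside this, the 9 macrophage and leukocyte markers had a summed mean of 278.1 and 318.6, 1.15 times as high, with 8 of 9 higher. *Csf1r* had the highest mean signal of them. Per kb, *C1qa* was above it, at 38.1 and 39.8 beside 14.7 and 16.9. Neutrophils also carry *Itgam* and *Itgb2*, and the 5 neutrophil markers had a summed mean of 17.4 and 14.0, a ratio of 0.807, with 3 of 3 kept lower. The part of leukocyte number in these ratios was not tested.

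The 2 members under the minimum mean were *Itga2b* and *Itgae*. *Itga2b*, the α subunit of the platelet fibrinogen receptor, had means of 0.818 and 1.14, about 30.6 and 48.6 reads per library; the platelet gene *Pf4* had means of 9.22 and 11.2. *Itgae*, the α subunit on lymphocytes within epithelia, had means of 0.360 and 0.190, about 12.9 and 7.24 reads per library. The ratio of *Itgae* was 0.528, with an exact 95% binomial interval of 0.284 to 0.870 that covers counting error only.

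**Figure D3:**
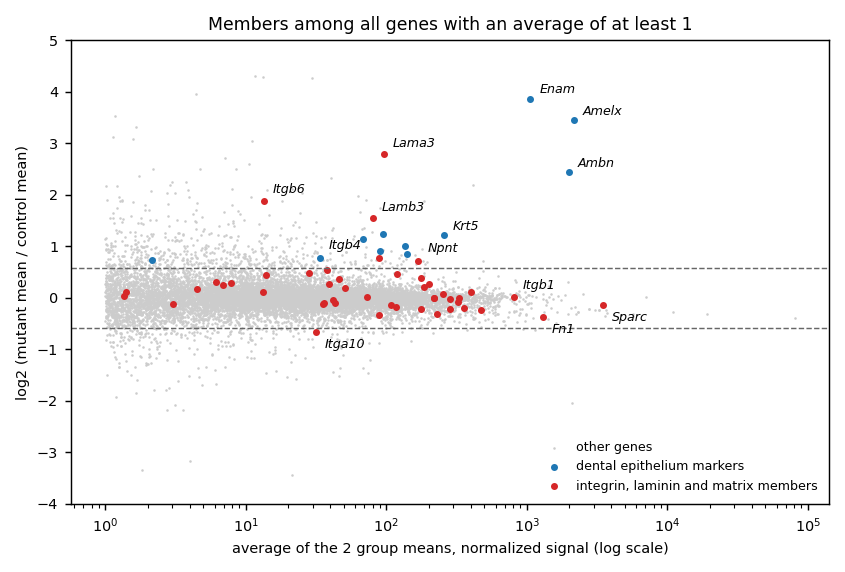
Each point is a gene with an average of the group means of at least 1, placed by that average in normalized signal (log scale) and by the log2 of the mutant mean over the control mean; members are red, dental epithelium markers blue, and 5 genes lie outside the vertical range shown. The markers *Enam* and *Amelx* and the member *Lama3* stand highest among the coloured points, and most members lie between the dashed lines at a fold of 1.5.

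Partners of the members outside the chosen names were taken from separate lists. The hemidesmosome is the plaque that α6β4 anchors to keratins. A list of hemidesmosome and other epithelial anchoring genes had 7 of 7 with a higher mutant mean, beside 51.4% of all genes. With the groups scaled to the same total, the share of all genes was 67.2%. Of the 7, 3 were past the fold. Without *Krt5* and *Krt14*, which are also among the dental epithelium markers, 1 of 5 was past it. *Col17a1*, the transmembrane collagen of the hemidesmosome, had means of 148.2 and 241.8, a ratio of 1.63. The basal keratin genes *Krt5* and *Krt14* had ratios of 2.32 and 2.02. *Plec* and *Dst*, which encode the linkers to keratin filaments, had ratios of 1.11 and 1.03 and are also used by other cells. *Cd151*, a tetraspanin that binds laminin receptors, had a ratio of 1.00, and *Col7a1*, the collagen of anchoring fibrils, had a ratio of 1.23. The median log2 ratio of this list was 0.30, or 0.15 without *Krt5* and *Krt14*, and 0.71 with a minimum mean of 100.

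The basement membrane collagens and their crosslinkers had a median log2 ratio of -0.07, with 2 of 9 kept genes past the fold on the higher side, *Ntn4* and *Col4a4*. *Col4a4*, with means of 0.616 and 1.69, reached the minimum average through the mutants alone, so that this minimum bears on its direction. *Col4a1* and *Col4a2*, the type IV collagen chains of nearly all basement membranes, had ratios of 1.04 and 1.05. *Ntn4*, a netrin that binds laminin γ chains, had means of 14.1 and 24.6, a ratio of 1.75. The cytoplasmic partners of integrins had a median of -0.04, which became 0.02 under scaling to the same total, and 1 of 22 passed the fold. This was *Fermt1*, the kindlin of epithelia, with means of 6.88 and 13.9 and a ratio of 2.02. Its relatives *Fermt2*, found in most tissues, and *Fermt3*, found in blood cells, had ratios of 0.908 and 1.06. *Tln1*, which encodes the integrin activator talin, had a ratio of 0.965.

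The promoters of the members higher past the fold were looked up to show what lies before their starts. RefSeq promoter sequences on GRCm38.p6 were matched for 34 members and for 12719 genes of the table. Among the 5 members higher past the fold, entries were found for *Lamb3*, *Itgb6* and *Npnt*, and not for *Lama3* and *Itgb4*. The 250 bases before the most upstream start among these entries were searched on both strands for the AP-1 motif TGANTCA, the GC box GGGCGG and the TATA motif TATAAA. None of these motifs contains another. The AP-1 motif was in 4.54% of all promoters and in 1 of 34 members, *Itgax*. The GC box was in 56.1% of all promoters and in 15 of 34 members, and the TATA motif in 6.97% and in 0 of 34. The median GC content was 59.2% both over all promoters and over the members.

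The sequences of the 3 matched members are printed 5′ to 3′ on the strand of the gene, ending before any annotated exon, with GC boxes in capitals. *Lamb3* (chr1:193301744-193301992, plus strand) and *Itgb6* (chr2:60722644-60722853, minus strand) held none of the 3 motifs, and *Npnt* (chr3:132950292-132950541, minus strand) held 3 GC boxes. The GC content of the 250 bases was 58.8%, 52.0% and 74.0%.
Lamb3: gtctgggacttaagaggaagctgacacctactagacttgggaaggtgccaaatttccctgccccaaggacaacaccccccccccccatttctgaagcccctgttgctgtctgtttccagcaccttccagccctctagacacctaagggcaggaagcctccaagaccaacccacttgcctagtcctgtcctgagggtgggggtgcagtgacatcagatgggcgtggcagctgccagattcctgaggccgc
Itgb6: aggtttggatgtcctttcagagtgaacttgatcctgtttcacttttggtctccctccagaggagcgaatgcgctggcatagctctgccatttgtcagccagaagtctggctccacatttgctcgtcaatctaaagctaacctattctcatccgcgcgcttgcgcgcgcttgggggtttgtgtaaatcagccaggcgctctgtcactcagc
Npnt: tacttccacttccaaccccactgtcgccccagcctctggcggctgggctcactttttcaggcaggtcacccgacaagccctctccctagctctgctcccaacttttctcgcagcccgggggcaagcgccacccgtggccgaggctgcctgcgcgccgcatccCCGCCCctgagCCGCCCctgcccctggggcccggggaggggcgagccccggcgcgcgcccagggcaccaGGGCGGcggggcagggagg
The *Lamb3* window lies inside the gene as annotated, since other transcripts of *Lamb3* start farther upstream. Absence of a motif says only that these letters are not in this window.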

How the data were processed

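Bulk RNA-seq of proximal incisor tissue was used from 3 control and 3 mutant mice, grouped by the labels. The study's methods name a column kit for the RNA, mm10 as the reference for the trimmed reads, and Partek Flow for the comparison. The submitters' processing notes name TopHat2 2.0.8. Strand, counting and annotation are not given in the sources used here. The values used were the authors' deposited group means of a normalized signal for 19270 genes, and the deposited summary of the signal per library (minimum, quartiles, mean and maximum). From the library minima, a signal was inferred to be a library's factor times 1 more than its reads, and depth was estimated from each library's mean and minimum; whether reads were split between genes is not given in the sources used here. The authors' comparison columns hold p-values, FDR, ratios and fold changes and were not used. In the library summary, 2 further numeric columns were not used.

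Ratios are mutant mean over control mean, with no pseudocount, among genes with an average of the group means of at least 1. A fold of 1.5 was used, as in the methods of the study, and no test across mice was run. The study also set a limit on the FDR, which was not applied here. Counts of genes past the fold are therefore not comparable with the genes it called. Levels per kb use the exon union of GENCODE vM21 on GRCm38, where 18840 names matched 1 gene. The value of 3 reads per library (0.103 in controls and 0.0923 in mutants) was the floor, and intervals cover counting error only. Members past the fold, the 10 highest per kb, *Itga6*, *Itgb4* and members near the fold were described in full. A gene covered by the rule is not reported here. Members and lists were chosen with earlier results of these data known, and the level classes, promoter motifs and counts without shared markers after the ratios were seen. The calculations were tested on simulated data. The tools were scipy 1.17.1, matplotlib 3.10.9, pandas 2.3.3 and numpy 2.4.6 under Python 3.11.15.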

Additional observations from a re-analysis of the deposited data

How the results depend on the processing

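The counts of members past the fold were recomputed under 8 other settings. With no minimum mean, 2 members were lower in mutants past the fold, *Itga10* and the thinly covered *Itgae*. With a minimum mean of 100, which leaves 22 members, 1 was higher, *Npnt*, and 0 were lower. A smaller fold (0.32 on the log2 scale) gave 11 higher and 3 lower, and a fold of 2 gave 0 lower and 3 higher, *Itgb6*, *Lama3* and *Lamb3*. The minimum means keep more or fewer genes, and the folds move the threshold, by their own construction. A minimum mean of 10, a pseudocount of 1 and centring on the median of all genes named the same 5 and 1 members, and scaling to the same total added *Itga2*. That scaling put the median log2 ratio of all genes at 0.07 and that of the same 47 members at 0.10. The median of the nidogens, Fraser complex and other non-integrin, non-laminin members was -0.02 and became 0.04 under it.

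No paired analysis was possible because the tables used hold group means for each gene and no value per mouse. Nor was any library left out. Depth limits *Itgae*, *Itga2b*, *Itgax* and *Itgb7*, which rest on about 63 reads per library or fewer.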

Other observations

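Genes that work with αv integrins in the activation of latent TGF-β were listed apart from the members. Of 4 listed genes in the table, 0 passed the fold of 1.5, and the median log2 ratio was -0.12. *Lrrc32*, which holds latent TGF-β at the cell surface, had means of 6.57 in controls and 9.24 in mutants. *Tgfb1* had means of 162.6 and 149.4, *Ltbp1* had means of 20.4 and 18.8, and *Nrros* had means of 10.6 and 9.32.

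Other cell type markers were read beside the members. Perivascular markers had a median log2 ratio of -0.20 with 0 of 6 past the fold, and glial markers 0.17 with 1 of 4 higher past it. Of 6 listed T and B cell markers, 3 were in the table and only *Cd4* was kept, with means of 3.62 and 5.46, just past the fold. *Cd3d* had means of 0.103 and 0.109, at the floor in controls, and *Cd79a* had means of 0.304 and 0.352. A difference in T or B cells thus cannot be read from these markers. Of the platelet markers 0 of 2 passed the fold. Skeletal muscle markers had summed means of 6.09 in controls and 5.60 in mutants. Of the 3 kept, *Acta1*, with means of 2.50 and 1.12, and *Tnnt3* were lower past the fold and *Myh4* was higher, and *Tnnt3* and *Myh4* each reached a mean of 1 in 1 group only.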
